A study of Mus musculus with 5 samples.

Results

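This account covers 7 genes: Cav1, Cav2, Hopx, Ager, Aqp5, Pdpn and Akap5. They are marker genes of alveolar type 1 cells together with the caveolin pair, and they were chosen by name, as those for which the platform annotation of a probe gives only that gene. Their names matched 8 probes, of which 7 had a value on at least 4 of 5 arrays and were used. The eighth, a further Cav2 probe, was blank on every array. Each gene therefore rests on 1 probe, and all 7 genes were among the 9727 genes tested.

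The samples were whole lungs of 5 C3H mice, an inbred strain, given ovalbumin as an allergen by sensitisation and then challenge (ova mice). Each was compared with 1 pool of lungs from control C3H mice on a 2-colour array, from amplified RNA. Mouse ages, the number of animals in the pool, the doses and days of ovalbumin, and the dyes, are not stated in the sources used here. The pool is 1 control sample, so the tests below measure the spread among ova mice and leave out the spread among control mice.

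The values are log ratios of both channels, read as base 2, after centring each array on its median. The base is not stated: the largest size in the table, 5.17, exceeds the log10 range of a 16-bit scanner, 4.82, and a natural logarithm remains possible. The numerator is not stated either. Each gene is therefore placed on the positive or the negative side of the deposited ratio, and no excess in ova or control lungs is assigned. Retnla and Clca1, genes of alternatively activated macrophages and of goblet cells that are known to rise in allergic airways, had mean ratios of -4.79 and -4.33, and serve as landmarks for the negative side. The arrays ran the same way, with Pearson's r across probes between 0.64 and 0.83 for the 10 pairs. The array of mouse 1 had a narrower spread of ratios (SD across probes 0.20) than those of mice 2 to 5 (0.32 to 0.38).

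Alveolar type 1 cells are the thin, flat epithelial cells that cover most of the gas exchange surface, and they lie against the capillary endothelium. Their membranes are rich in caveolae, flask-shaped invaginations whose coat is built from caveolins and cavins. Caveolins are equally typical of endothelium, fat cells and muscle, so that Cav1 and Cav2 do not mark the epithelium alone.

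Of the 7 genes, 6 lay past the threshold above 0 and none below it (limma, Benjamini-Hochberg adjusted p under 0.05 over all genes). Among all genes tested, 12.3% were called on the positive side, 15.0% on the negative side and 27.3% on either. The exception was Pdpn, which did not pass. Of the 35 ratios of these genes, 34 were above 0. Of all 7 genes, 6 were above 0 in every mouse, and these were the 6 called. The same held for 19.3% of the 8042 genes measured in all 5 mice, called or not. The median of the 7 gene means was 0.65, against 0.00 over all genes tested. The 6 called genes lay on the side opposite to Retnla and Clca1. In limma's treat, which asks for a size beyond 0.2, 5 of the 7 genes still passed, all but Ager and Pdpn, while 2.17% of all genes passed on the positive side. In whole lung, a different number of cells of a type and a different amount of RNA per cell cannot be told apart.

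**Figure D1:**
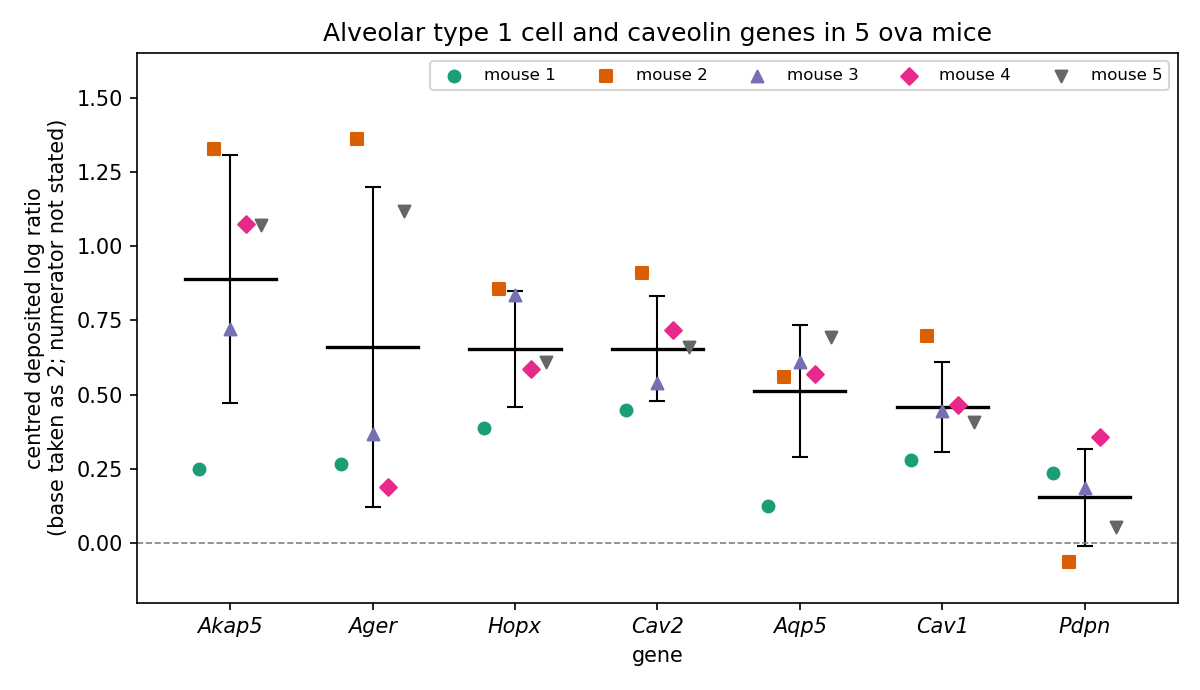
Centred log ratio (vertical axis, base taken as 2) of each gene in each of 5 ova mice, with genes ordered by mean; points are mice, thick lines means and thin bars 1 SD. Only 1 of 35 points, Pdpn in mouse 2 at -0.06, lies below 0, and the Ager points of mice 2 and 5 stand apart from those of the other mice.

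The caveolins were examined as a pair. Cav1 encodes the integral membrane protein without which caveolae do not form in these cells, and Cav2 the partner that assembles with it. In mice 1 to 5 the ratio of Cav1 was 0.28, 0.70, 0.44, 0.46 and 0.41, a mean of 0.46 ± 0.15 (SD, n = 5, limma adjusted p = 0.00235). The ratio of Cav2 was 0.45, 0.91, 0.54, 0.72 and 0.66, a mean of 0.65 ± 0.18 (n = 5, limma adjusted p = 0.00101), which was the smallest p of the 7 genes. Both genes were highest in mouse 2 and lowest in mouse 1. Read as base 2, the means correspond to 1.37-fold for Cav1 and 1.57-fold for Cav2, and as natural logarithms to 1.58-fold and 1.92-fold.

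Cav2 lay further from 0 than Cav1 in all 5 mice, by 0.09 to 0.25. The mean difference was 0.20 ± 0.07 (SD, exact two-sided sign-flip permutation p = 0.0625, the smallest that 5 mice allow). Each gene rests on a different probe, and probes can differ in how far they compress a ratio.

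Cav2 and Cav1 are neighbouring genes on mouse chromosome 6. Of the genes around them, chosen by position after their values were seen, Tes, on the far side of Cav2, had a mean ratio of 0.01 (limma adjusted p = 0.872). Tfec, beyond Tes, and Capza2, beyond Met on the far side of Cav1, were called negative, at -0.97 and -0.44 (limma adjusted p = 0.00378 and 0.0156), and Met was not measured. The positive ratio of the caveolins thus did not extend to the neighbouring genes that were measured. Among the other 5 genes, 10 neighbours within 2 places were measured. Of these, Mthfd1 (0.25), next to Akap5, and Zbtb1 (0.29), 2 places from it, were called positive (limma adjusted p = 0.0176 and 0.0168). Of all genes tested, 12.3% were called on that side. Zbtb25, between Akap5 and Zbtb1, had -0.02, and Tex21, beyond Mthfd1, had 0.05. Neither was called (limma adjusted p = 0.781 and 0.561). Leaving out 1 mouse ended the call of Capza2 (without mouse 3 or 5, limma adjusted p = 0.0612 and 0.0614), Mthfd1 (without mouse 2, 4 or 5, 0.0523 to 0.0635) and Zbtb1 (without mouse 3, 0.0642).

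The promoters of both caveolin genes are shown because the genes are adjacent and lay on the same side in every mouse. Each line gives the 250 bases before a gene start, 5′ to 3′ along the gene, from RefSeq on build GRCm38.p6. The reference comes from another strain than C3H. Capitals mark the letters GGGCGG on either strand, the GC box read by Sp and KLF factors.
Cav2, chr6:17280935-17281184, plus strand: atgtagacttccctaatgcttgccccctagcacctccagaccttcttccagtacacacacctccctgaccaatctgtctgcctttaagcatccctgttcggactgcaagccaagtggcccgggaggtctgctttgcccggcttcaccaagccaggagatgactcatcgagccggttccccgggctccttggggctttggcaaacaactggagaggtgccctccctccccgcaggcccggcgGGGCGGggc
Cav1, chr6:17306085-17306334, plus strand: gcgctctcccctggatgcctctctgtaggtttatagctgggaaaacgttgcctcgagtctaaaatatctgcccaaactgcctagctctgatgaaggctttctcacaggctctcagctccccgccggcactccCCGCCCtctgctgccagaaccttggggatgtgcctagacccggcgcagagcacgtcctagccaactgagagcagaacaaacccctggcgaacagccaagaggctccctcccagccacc
The second Cav1 start in the RefSeq table, chr6:17307390-17307639, held 0 GC boxes. The Cav2 window also held 1 match to TGANTCA, the AP-1 motif. It held 1 to CACTTG, a core bound by NKX2-1, on the opposite strand, so that the line above reads caagtg. The Cav1 window held 1 TATAAA, also on the opposite strand (tttata in the line above), at position -221 from the start.

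Caveola formation involves further proteins, and these were counted from a list. Of 21 listed genes of the caveola coat and its associated proteins, 14 were measured. Of these, 1 was called positive, 1 negative and 12 neither, and the median was 0.06. The shares over all genes tested, 12.3% positive and 15.0% negative, stand beside this count and those of the later lists. Cavin1, the coat protein that acts with Cav1 in caveola formation, had ratios of 0.10, 0.03, 0.35 and 0.02 in mice 1, 2, 4 and 5 (mean 0.12, limma adjusted p = 0.231). Cavin1 thus lay below Cav1 in each of these mice. Ehd2, the ATPase at the caveola neck, gave 0.08 (n = 4), and Cav3, the muscle caveolin, -0.01 (n = 4). Neither passed (limma adjusted p = 0.293 and 0.933). The called genes were Cd36, a fatty acid scavenger receptor found in caveolae, at 0.41 ± 0.17, and Ptpn1, a tyrosine phosphatase, at -0.38 ± 0.13. Cavin2 and Cavin3 were not measured.

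Ager encodes the receptor for advanced glycation end products (RAGE), an immunoglobulin-family receptor that in healthy lung is concentrated on the basal side of alveolar type 1 cells. Its ratios in mice 1 to 5 were 0.27, 1.36, 0.37, 0.19 and 1.12. Mice 2 and 5 thus stood well above the other 3 mice. The mean was 0.66 ± 0.54 (SD, n = 5, limma adjusted p = 0.0281), with the widest spread of the 7 genes. The call was lost without mouse 2 (mean 0.49, limma adjusted p = 0.0657), without mouse 3 (mean 0.73, limma adjusted p = 0.0571) and without mouse 5 (mean 0.55, limma adjusted p = 0.099). The limma adjusted p ran from 0.0121 to 0.17 over 15 alternatives.

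The ligands of RAGE fell on both sides. Of 12 measured genes of RAGE ligands and signalling, 3 were called positive, 4 negative and 5 neither, and the median was 0.00. S100a4, a calcium-binding protein, had -1.73 ± 0.47, and S100a8 and S100a9, the calprotectin subunits abundant in neutrophils, had -1.13 ± 0.33 and -0.73 ± 0.37 (limma adjusted p of 0.00519 or less for all 3). Hmgb1, the nuclear protein that is a RAGE ligand when released, gave 0.05 ± 0.05 (n = 4, limma adjusted p = 0.539). Rela, a subunit of NF-kB downstream of the receptor, was on the positive side at 0.44 ± 0.08. S100a11 (0.47 ± 0.16) and S100a13 (0.28 ± 0.14), calcium-binding proteins of the same family, were also positive (limma adjusted p = 0.00235 and 0.0117). The S100 genes called thus lay on both sides, S100a11 and S100a13 on that of the receptor and S100a4, S100a8 and S100a9 on the other, each in all 5 mice. S100a6 (-0.003) and S100a1 (0.0015, n = 4) were measured and not called. The remaining negative call of this list was Hmgb2 (-0.92 ± 0.31, limma adjusted p = 0.00135).

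Aqp5 encodes the water channel of the apical membrane of type 1 cells, which also occurs in airway glands. Its ratio was 0.13 in mouse 1 and 0.56, 0.61, 0.57 and 0.69 in mice 2 to 5. The mean was 0.51 ± 0.22 (SD, n = 5, limma adjusted p = 0.00405). Mouse 1 stood apart from the other 4 mice, and without it the mean was 0.61. Of 7 other aquaporins measured, 0 were called positive and 1, Aqp9, negative, beside 12.3% and 15.0% of all genes tested. The difference of these aquaporins from Aqp5 was not tested. Aqp8 had 0.18 ± 0.13 and narrowly missed the threshold (limma adjusted p = 0.0525), passing it without mouse 1 (0.23, limma adjusted p = 0.0232), without centring (0.0497) and among genes with values on all 5 arrays (0.0494). Aqp1, the water channel of lung capillaries, had 0.23, 0.23, -0.11 and 0.45 in mice 2 to 5 (limma adjusted p = 0.146), and was called without mouse 4 (0.30, limma adjusted p = 0.035). Aqp9 (-0.15) lost its call whichever mouse was left out, with adjusted p between 0.0684 and 0.125.

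Pdpn encodes podoplanin, a mucin-type membrane protein used as a type 1 cell marker in rodents and made as well by lymphatic endothelium and some fibroblasts. Its ratios were 0.24, -0.06, 0.19, 0.36 and 0.06 in mice 1 to 5, a mean of 0.15 ± 0.16 (SD, n = 5, limma adjusted p = 0.119). Pdpn was not called under any of 15 alternatives (adjusted p from 0.0619 to 1). Its order over mice was not that of the other genes, since mouse 2 gave its lowest value, while the same mouse was highest for Cav1, Cav2, Hopx, Ager and Akap5. Of 9 measured partners of podoplanin and genes of lymphatic vessels, 1 was called positive, 2 negative and 6 neither, and the median was 0.01. Beside this, 12.3% of all genes tested were called positive and 15.0% negative. Vegfc, a growth factor for lymphatic vessels, had 0.42 ± 0.23. Clec1b, the platelet receptor for podoplanin, had -0.23 ± 0.11, and Ezr, the ezrin that binds its tail, -0.20 ± 0.14. Clec1b lost its call without mouse 2, 3 or 5 (limma adjusted p from 0.0526 to 0.0592) and Ezr without mouse 1, 2, 3 or 5 (0.0839 to 0.126). The lymphatic markers Prox1 (0.07) and Lyve1 (0.10) were not called; Lyve1 gave 0.74 in mouse 1, while mice 2 to 5 ran from -0.24 to 0.13.

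Hopx encodes a small homeodomain protein that does not bind DNA itself and acts as a transcriptional cofactor, in type 1 cells and also in heart muscle. Its ratios were 0.39, 0.85, 0.84, 0.59 and 0.61 in mice 1 to 5, a mean of 0.65 ± 0.19 (SD, n = 5, limma adjusted p = 0.0013). The lowest and highest values differed less than those of Ager, Akap5 or Aqp5, and mouse 1 was again the lowest. Of 8 measured regulators of type 1 cell fate, 1 was called, on the positive side, where 12.3% of all genes tested were called. The called regulator was Tcf21 (0.55 ± 0.20), a transcription factor of lung mesenchyme. The TEAD factors Tead1 (0.02), Tead3 (0.09) and Tead4 (-0.13), through which YAP and TAZ act, were not called, and Nkx2-1 was not measured.

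Akap5 encodes a scaffold that holds protein kinase A, protein kinase C and calcineurin at the membrane. It had the largest mean of the 7 genes. Its ratios were 0.25, 1.33, 0.72, 1.08 and 1.07 in mice 1 to 5, a mean of 0.89 ± 0.42 (SD, n = 5, limma adjusted p = 0.0038). This is 1.85-fold if the base is 2 and 2.43-fold if the logarithm is natural. From the positive end it ranked 25 of 9727 genes, with Ager at 80, Hopx at 83, Cav2 at 84, Aqp5 at 195, Cav1 at 256 and Pdpn at 1570. Mouse 1 stood below the others, at 0.238 of the mean of mice 2 to 5. Of 15 other genes of A-kinase anchoring and its partners that were measured, 3 were called positive, 0 negative and 12 neither, and the median was 0.03. The share called positive over all genes tested was 12.3%. The 3 called genes of this list were the anchoring proteins Akap13 (0.42 ± 0.10) and Akap12 (0.34 ± 0.12) and Prkacb (0.35 ± 0.09), a catalytic subunit of protein kinase A.

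The promoters of Akap5 and Aqp5 are shown because they held the most GC boxes, again in capitals, of the 9 windows that RefSeq gives for these 7 genes.
Akap5, chr12:76324641-76324890, plus strand: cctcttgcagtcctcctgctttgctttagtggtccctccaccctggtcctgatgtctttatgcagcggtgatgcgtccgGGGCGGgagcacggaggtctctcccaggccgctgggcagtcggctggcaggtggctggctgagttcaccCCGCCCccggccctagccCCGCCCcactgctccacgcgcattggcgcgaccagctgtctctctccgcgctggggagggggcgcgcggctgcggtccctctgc
Aqp5, chr15:99590778-99591027, plus strand: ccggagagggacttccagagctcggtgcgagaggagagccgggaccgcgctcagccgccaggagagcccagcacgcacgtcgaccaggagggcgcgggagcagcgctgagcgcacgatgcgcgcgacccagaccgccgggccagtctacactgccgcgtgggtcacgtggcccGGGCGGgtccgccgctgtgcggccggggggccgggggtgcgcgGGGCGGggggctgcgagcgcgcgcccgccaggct
Akap5 held 3 GC boxes in a window of 70.0% G and C, and Aqp5 held 2 in a window of 78.4%; the median over all windows was 52.4%. At least 1 GC box was found in 4 of the 9 windows (Cav1, Cav2, Akap5 and Aqp5), and in 32.7% of all 32851 windows of this length. GGAATG, the TEAD motif, was found in 0 of the 9 and in 12.6% of all. TATAAA was in 1 of the 9 and 12.4% of all, TGANTCA in 1 and 6.75%, and CACTTG in 1 and 11.6%. Both strands were searched, and TGANTCA reads the same on both. The windows of Hopx, Ager and Pdpn held none of these letters. A match says only that the letters are present.

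The 7 genes were then set in order. By mean ratio the order was Akap5, Ager, Hopx, Cav2, Aqp5, Cav1 and Pdpn, from 0.89 to 0.15. Neighbours in this order differed by less than the SD of their difference over mice, except Cav1 and Pdpn, which kept their order in all 5 mice. From Akap5 to Ager the mean step was 0.23 ± 0.41, and from Ager to Hopx 0.01 ± 0.48. Hopx and Cav2 differed by 0.00 ± 0.17, Cav2 and Aqp5 by 0.14 ± 0.20, Aqp5 and Cav1 by 0.05 ± 0.19, and Cav1 and Pdpn by 0.30 ± 0.28. Over all 21 pairs, 7 kept the same order in every mouse, 4 of them with Pdpn as the lower gene and the other 3 being Akap5 over Aqp5, Hopx over Cav1 and Cav2 over Cav1. The exact sign-flip test gave each of these p = 0.0625 (adjusted over the 21 pairs 0.188), so with 5 mice no pair could pass the threshold.

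The mice differed in the size of these ratios. The mean over the 7 genes was 0.28, 0.81, 0.53, 0.57 and 0.66 in mice 1 to 5. Mouse 2 gave the highest value of 5 genes, the exceptions being Aqp5, highest in mouse 5, and Pdpn, highest in mouse 4. Mouse 1 gave the lowest value of 5 genes. The ratio of mouse 1 to the mean of mice 2 to 5 was 0.633 for Cav2, 0.558 for Cav1 and 0.535 for Hopx. It was 0.352 for Ager, 0.238 for Akap5 and 0.206 for Aqp5.

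Ranks within an array do not depend on the spread of that array. By this measure Cav2 lay between the 97.4th and the 99.2nd percentile of the genes in all 5 arrays, and Hopx between the 97.2nd and the 99.5th. In mouse 1, whose ratios were small, Cav2 (99.2) and Hopx (98.6) lay within or above the range of the other mice. Cav1 lay between 93.7 and 98.1, and Akap5 between 95.3 and 99.8. Ager ranged from 80.0 in mouse 4 to 99.9 in mouse 2, Aqp5 from 83.6 in mouse 1 to 98.4 in mouse 3, and Pdpn from 36.8 in mouse 2 to 94.8 in mouse 1.

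**Figure D2:**
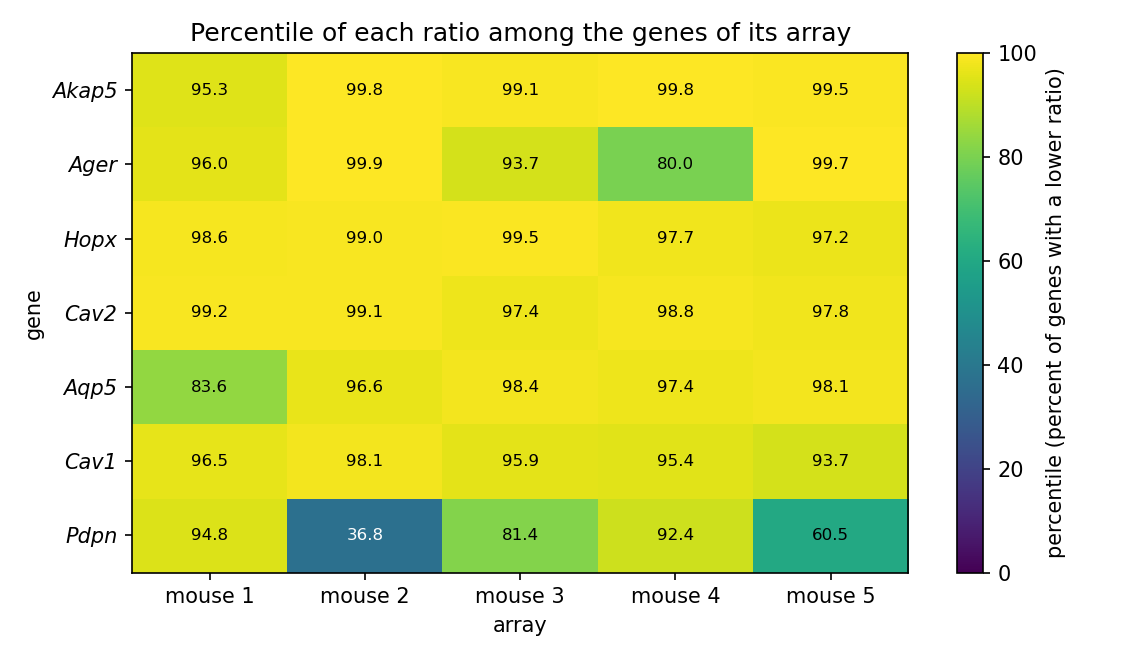
Percentile (percent of genes with a lower ratio in the same array, colour scale 0 to 100) of each of the 7 genes (rows) in the 5 arrays (columns). Cav2 and Hopx are above 97 in every array, and Pdpn is lowest at 36.8 in mouse 2.

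**Figure D3:**
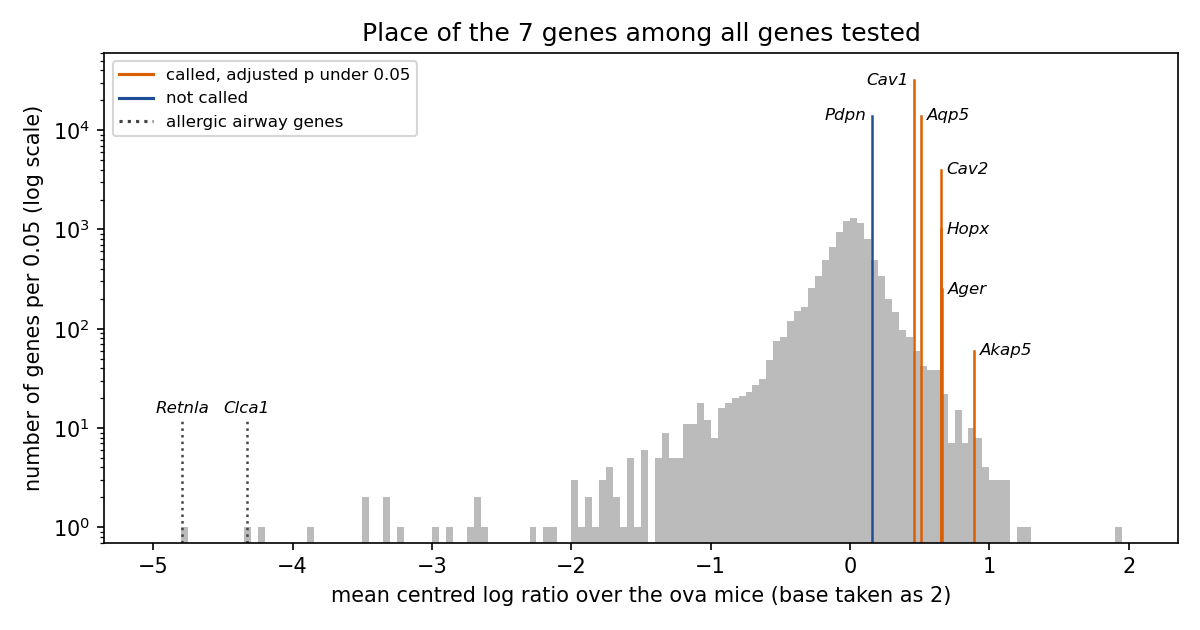
Number of genes (vertical log axis) by mean centred log ratio (horizontal axis, base taken as 2) for all 9727 genes, with lines at the 7 genes and at Retnla and Clca1. The called genes (orange) lie between 0.46 and 0.89, Pdpn (blue) at 0.15, and Retnla and Clca1 at -4.79 and -4.33.

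Other markers of type 1 cells were counted from a list of 34, of which 24 were measured. Of these, 11 were called positive, 1 negative and 12 neither, and the median was 0.23 against 0.65 for the 7 genes. Cyp2b10, a cytochrome P450, had 0.59 ± 0.25, Cldn18, the lung tight junction claudin, 0.49 ± 0.25, and Vegfa, the endothelial growth factor made by alveolar epithelium, 0.56 ± 0.34. The gene on the negative side was Gramd3 (-0.32 ± 0.10), entered in the list under its newer symbol Gramd2b, and not a gene that is surely a type 1 cell marker. Rtkn2, a selective type 1 cell marker in mouse lung, had ratios of -0.12, 0.87, 0.12, 0.56 and 0.51 and was not called (limma adjusted p = 0.0617), but it was without mouse 1 (0.51, limma adjusted p = 0.0139). Clic5, a chloride channel protein enriched in type 1 cells, gave 0.15 (limma adjusted p = 0.208). The other genes not called lay on both sides. Slc39a8 (-0.19) and Itgb6 (-0.13) were below 0 in all 5 mice, and Ahnak (-0.10), Ptpre (-0.06) and Spock2 (-0.01) had negative means. Krt7 (0.28), Timp3 (0.23), Limch1 (0.13), Agrn (0.11) and Col4a4 (0.08) had positive means. Without mouse 5 the count on the positive side was 5, and without mouse 2 or mouse 3 it was 7.

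The list median of these other markers was 0.03, 0.42, 0.13, 0.15 and 0.40 in mice 1 to 5. Mice 2 and 5 were highest, as they were for Ager. This order was not particular to type 1 cell genes. The endothelium list was also highest in mice 2 and 5, with array medians of 0.24, 0.77, 0.44, 0.44 and 0.74. So was the adipocyte list, with 0.22, 0.34, 0.15, 0.09 and 0.29, while the heart muscle list was highest in mouse 4. Sftpc, the surfactant protein gene of type 2 cells, also had its highest ratios in these mice, with 0.22, 1.08, 0.71, 0.34 and 1.03, but the type 2 cell list as a whole had not, with array medians of 0.10, 0.07, 0.09, -0.12 and 0.08 in mice 1 to 5. S100a9 (-0.44, -1.18, -0.57, -0.39 and -1.07) was furthest from 0 in the same mice, on the opposite side. What sets mice 2 and 5 apart was not tested.

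Markers of other cells that a lung sample can hold were counted in the same way. The endothelium, which shares caveolins with the type 1 cell, had 16 of 22 measured genes called positive and 0 negative. The median was 0.56, with array medians between 0.24 and 0.77. Plvap, of the diaphragms of caveolae and fenestrae, had 0.86 ± 0.14, Klf4, a flow-responsive transcription factor, 0.91 ± 0.20, and S1pr1, the sphingosine-1-phosphate receptor, 1.01 ± 0.26. Pecam1, the endothelial adhesion molecule, gave 0.20 and was not called. Adipocyte genes, whose cells also make caveolins, had 6 of 10 on the positive side and a median of 0.21 (array medians 0.09 to 0.34). Adipoq, the hormone adiponectin, was 1.18, 1.70, 0.17, 1.22 and 1.28 in mice 1 to 5, and Cidea, a lipid droplet protein, had 0.64 ± 0.15. The 4 adipocyte genes not called were Lpl (0.12), Pnpla2 (-0.03), Lipe (-0.03) and Pparg (-0.14). Heart muscle, where Hopx is also expressed, had 9 of 16 called on the positive side and a median of 0.25 (array medians 0.02 to 0.40). Fabp3, a fatty acid binding protein, had 1.26 ± 0.16 (n = 4) and Myl7, the atrial myosin light chain, 0.68 ± 0.31. The 7 heart genes not called were Actc1 (0.40), Tnni3 (0.21), Myh7 (0.12), Pln (0.12), Sln (0.01), Mb (-0.05) and Myh6 (-0.07). The part of these cells in the ratios of Cav1, Cav2 and Hopx was not tested.

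Genes of neighbouring epithelial cells were more divided. Of 17 measured type 2 cell genes, 5 were called positive and 2 negative, and the median was 0.03; Abca3, the surfactant lipid transporter, had 0.27 ± 0.10 and Ctsh, a cathepsin of surfactant processing, 0.59 ± 0.42. The negative calls were Sftpd, surfactant protein D (-0.47 ± 0.36, n = 4, limma adjusted p = 0.0351), and Cxcl15, the lung chemokine lungkine (-0.46 ± 0.40, limma adjusted p = 0.0391). Ctsh lost its call without mouse 3 or 5 (limma adjusted p = 0.0715 and 0.0635), Sftpd without mouse 2, 3 or 4 (0.0548 to 0.117) and Cxcl15 without mouse 2, 3, 4 or 5 (0.0706 to 0.116). Of 12 club and ciliated cell genes, 5 were called positive and 2 negative, and the median was 0.12; Scgb1a1, the club cell secretory protein, had 0.70 ± 0.36 (n = 4), Cyp2f2, a club cell P450, 0.95 ± 0.48, and Tppp3, a tubulin-binding protein of ciliated cells, 0.61 ± 0.24. The negative calls were both of ciliated cell genes, Tekt1, a tektin of the axoneme (-0.21 ± 0.09), and Rsph1, a radial spoke protein (-0.25 ± 0.20). Tekt1 lost its call without mouse 2 or 5 (limma adjusted p = 0.0608 and 0.0665) and Rsph1 in 4 of the 5 fits that leave out a mouse, all but that without mouse 3 (0.0568 to 0.122). Smooth muscle and fibroblast genes had 2 called positive and 4 negative of 13, and the median was -0.06; Col1a1, a collagen chain, had -0.78 ± 0.20, Acta2, smooth muscle actin, -0.30 ± 0.09 and Fbln1, a matrix fibulin, 0.34 ± 0.15. Leukocyte genes had 1 called positive and 8 negative of 14, and the median was -0.29. Ptprc, the pan-leukocyte phosphatase CD45, had -0.62 ± 0.22, Cd68 -0.46 ± 0.17 and the macrophage mannose receptor gene Mrc1 -1.23 ± 0.66. The positive call was Siglecf (0.30 ± 0.24, limma adjusted p = 0.0402), which was above 0 in all 5 mice. Of the 7 measured genes known to rise in allergic airways, 6 were called negative and 0 positive. Among the genes called, those of type 1 cells, endothelium, heart and fat thus lay mainly above 0, and those of leukocytes mainly below it. These lists are described by counts, and no difference between lists was tested.

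**Figure D4:**
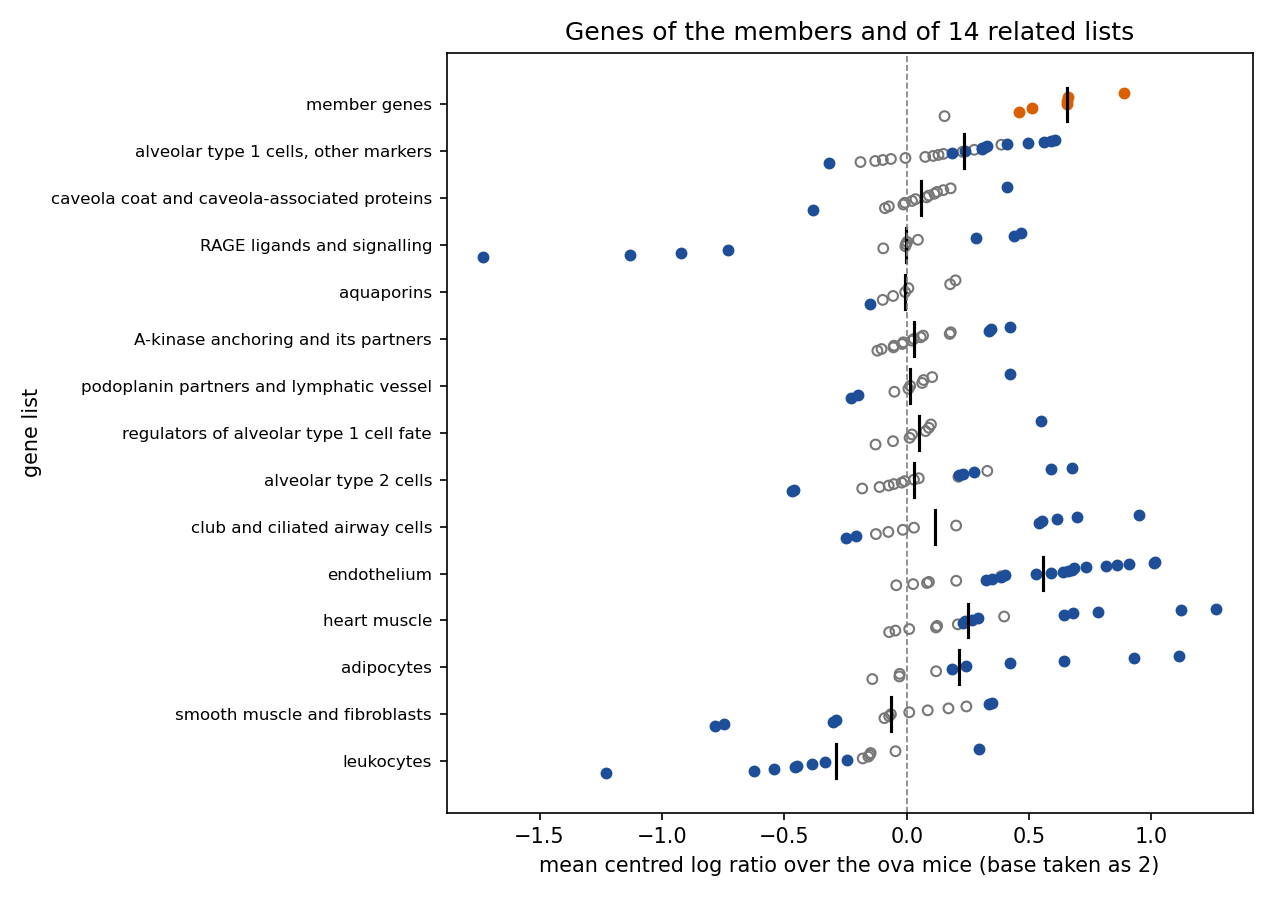
Mean centred log ratio (horizontal axis, base taken as 2) of each measured gene, for the 7 genes (top row) and 14 lists below it; filled points were called (limma adjusted p under 0.05), open points were not, and vertical bars are list medians. The 7 genes have a median of 0.65, endothelium 0.56, the other type 1 cell markers 0.23 and leukocytes -0.29.

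Genes with the most similar values were sought by the root mean square difference over the 5 arrays, among 8035 other genes with 5 values. Nearest to the mean of the 7 genes were Pir, a nuclear iron-binding protein (difference 0.06), Dpep3, a membrane dipeptidase (0.07), P4htm, a transmembrane prolyl hydroxylase (0.07), Sema3e, a secreted semaphorin (0.07), and Fzd4, a Wnt and norrin receptor (0.08). The median difference over all genes was 0.61. Nearest to Cav1 alone were Btg3, an antiproliferative protein (0.06), Rras, a small GTPase (0.06), and Ppp1r11, a phosphatase inhibitor (0.06), against a median of 0.50. Rras, for example, had 0.33, 0.60, 0.44, 0.50 and 0.48 in mice 1 to 5. All 8 genes were called positive (limma adjusted p of 0.00444 or less), which follows from choosing them for values close to a positive profile. With 5 arrays such likeness reflects mainly the mean ratio and the small values of mouse 1.

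Probe position bears on single-probe genes. Across the array, mean ratios were correlated between probes lying 6, 18 and 24 IDs apart (Pearson's r = 0.155, 0.108 and 0.107 across probes, which are not independent). Pairs annotated to the same gene were left out. Probes without a symbol were kept, so some pairs may still share a gene. At these distances from the probes of the 7 genes, 30 probes were measured, of which 12 were called positive and 2 negative; over all 11714 probes tested, 11.7% were called on the positive side. For Cav1, 4 of 4 such probes were called on the positive side, with means between 0.23 and 0.46. For Akap5 it was 2 of 3 (highest 0.62), for Aqp5 2 of 3 (highest 0.53), for Hopx 3 of 6 (highest 0.61) and for Cav2 1 of 5 (highest 0.42). For Ager, 0 of 4 lay there and 2 were called on the negative side, the lowest at -0.85, and for Pdpn 0 of 5 were called. Beside Aqp5 (0.51) the highest neighbour, Spatc1l, lay further from 0 than the gene itself, and beside Cav1 the highest, Zfp91, equalled it to 2 decimals; beside Akap5, Hopx and Cav2 every such neighbour was lower than the gene. The part of neighbouring probes in the ratios of Cav1, Akap5, Aqp5, Hopx and Cav2 was not tested.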

How the data were processed

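The deposited table of these 2-colour arrays holds 1 value per probe and array, a log ratio taken as log2; the authors' background correction, within-array normalization, log base and numerator are not stated in the sources used here. Without spot brightness, faint spots could be recognised only as blanks, and the number of arrays limits the precision. Between 11778 and 13320 of 17280 probes had a value on an array. Gene names came from GEO's platform annotation, under which 14722 probes have 1 symbol, 1 has several and 2557 have none; identifiers in the RefSeq gene table of GRCm38.p6 changed 0 symbols.

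After centring arrays on their medians, probes naming only 1 gene were averaged per gene and array, and genes with values on at least 4 of 5 arrays were tested against 0 with limma 3.58.1 in R 4.3.3 (lmFit, eBayes, two-sided, Benjamini-Hochberg, threshold 0.05). The procedure was tested on simulated data. Paired differences between genes were tested with exact sign-flip permutations in scipy 1.17.1. Alternatives changed the centring, scaling, filter on blanks, probe summary, variance moderation, minimum size (limma's treat) and the mice included.

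The 7 genes and the 15 gene lists were chosen with earlier results of these data known. Besides the 7 genes, the text names up to 3 genes of smallest p per list, some fixed key genes and the genes of most similar values. Rtkn2, Clic5, Prox1, Lyve1, Tead1, Sftpd, Cxcl15, Tekt1, Rsph1, S100a11, S100a13 and the neighbours in the genome or on the array were chosen after their values were seen. So were S100a1, S100a6, Hmgb2, Siglecf and the heart and adipocyte genes named as not called. The counts of named genes below leave out this last group. Labels number the ova samples, and each number was taken as a separate animal. No pair of arrays had more than 36 identical values.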

Additional observations from a re-analysis of the deposited data

Results flagged for a closer look

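Of 85 named genes with values, 8 had 1 mouse far from the others by Dixon's criterion for small groups; chance alone flags about 1 in 20. Among the type 1 cell and caveolin genes this was Aqp5, with 0.13 in mouse 1 (0.125 to 3 decimals) and 0.56 to 0.69 in the other mice. Tfec, beside the caveolins in the genome, was nearest to 0 in mouse 1, at -0.16 against -1.27 to -1.09 in the others. Cyp2f2 was also low in mouse 1, at 0.11 against 1.05 to 1.33 in the others, and Cd68 was nearest to 0 there, at -0.17 against -0.61 to -0.49. Cldn18 was high in mouse 2, at 0.93 against 0.28 to 0.46. Cd36 was low in mouse 4, at 0.12 (0.115) against 0.43 to 0.56. Aqp9 was lowest in mouse 5, at -0.25 against -0.15 to -0.11, and Tead4 in mouse 3, at -0.45 against -0.09 to -0.01.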

How the results depend on the processing

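Cav1, Cav2, Hopx, Aqp5 and Akap5 kept their side and their call under all 15 alternatives, and Pdpn stayed without one; each of the 7 has 1 usable probe, so the alternatives for probe summaries could change only the adjustment. Ager lost its call with a minimum size of 0.2 (mean 0.66, limma's treat, adjusted p = 0.17) and when mouse 2, 3 or 5 was left out; its mean was 0.49 to 0.78 over the 5 fits that leave out a mouse. The number of the 7 genes called was 5 or 6 throughout.

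With the minimum size of 0.2, 590 genes were called, 211 on the positive side (2.17% of those tested) and 379 on the negative side, since small ratios then cannot pass. The lists then gave 1 of the other type 1 cell markers on the positive side, 0 caveola genes, 0 aquaporins (negative side), 1 A-kinase anchoring gene, 0 podoplanin partners (negative side), 0 type 2 cell genes, 2 club and ciliated cell genes, 9 endothelial genes, 4 heart genes, 3 adipocyte genes, 1 smooth muscle and fibroblast gene and 3 leukocyte genes (both negative side).

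Leaving out each mouse gave 1599 to 2553 genes, against 2656 with all mice: 671 to 1124 on the positive side and 928 to 1429 on the negative side. The lowest counts came without mouse 5; without mouse 3 there were 1678 genes (735 and 943), and without mouse 2 there were 789 on the positive side. The other type 1 cell markers gave 5 to 12 on the positive side, type 2 cells 2 to 5, and on the negative side aquaporins 0 and podoplanin partners 0 to 2. Fits with fewer mice have less power. Of the 78 other named genes, 48 kept their call, or stayed without one, in all alternatives that could be fitted, and 0 changed side with a call. Tested alone, 3095 of 11714 probes differed from 0.

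No paired analysis was possible because the series holds 1 group. Depth is not applicable to these ratios, and a weak spot cannot be told from a strong one.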
